A study of Homo sapiens with 12 samples.

Results

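The genes described here encode the machinery that turns a nascent small nuclear RNA (snRNA) into a spliceosomal particle: the Integrator complex, the 3′ trimming enzymes, the export and import factors, the SMN complex, the methylosome, the Sm proteins and the Cajal body protein coilin. They were taken from a list of 41 named genes, and each of the 41 was found by its symbol among the 60483 gene rows of the deposited counts. All 41 passed the filter on low counts, which left 14409 genes to test. Between 458 reads (SMN2) and 24956 reads (XPO1) were counted per listed gene over the 6 libraries.

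The cells were HEK293, an established human embryonic kidney line, in which a Flp-In T-REx cassette let doxycycline induce FLAG-tagged DIS3L2, a cytoplasmic 3′ to 5′ exoribonuclease, either wild type (WT) or as a catalytic mutant (mut). In both lines the cassette also expressed hairpins against the cell's own DIS3L2 message, and the transgene was recoded to escape them. Both lines received 100 ng/ml doxycycline for 3 days, and total RNA was depleted of ribosomal RNA and sequenced in 3 libraries per variant. The labels do not say whether replicates were separate cultures or whether a line was 1 clone, and the spread that the p-values rest on may therefore be technical.

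Most spliceosomal snRNAs are made by RNA polymerase II. Integrator cleaves the nascent transcript downstream of the mature end, and the cap-binding complex and PHAX bring the precursor to the exportin XPO1. In the cytoplasm the SMN complex loads a ring of Sm proteins, TGS1 hypermethylates the cap, and snurportin (SNUPN) leads the particle back to the nucleus, where it passes through Cajal bodies. The 3′ tail of a precursor is exposed in the cytoplasm during this stage, where DIS3L2 also acts.

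Reads counted in genes ranged from 8315986 to 12675042 per library. DIS3L2 stood at 1092 ± 51.6 CPM (counts scaled to a common library size with TMM factors) in mut against 784 ± 25.8 in WT (SD, n = 3). Transgene and endogenous reads cannot be told apart there. HEK293 markers such as VIM (1417 against 1210 CPM) and NEFL (126 against 88.3 CPM) were present in both lines, while PAX2 and NEFM were below the filter. The blood genes CD3E and HBB had 0 reads, and PTPRC had 3 reads over the 6 libraries. Of the 20 markers, 8 were below the filter and were not tested. At an edgeR adjusted p under 0.05, 9 were higher in mut (VIM, NEFL, INA, EPCAM, CDH1, KRT8, KRT18, COL1A1 and COL3A1) and 0 lower. Among all genes tested 13.0% were higher and 14.2% lower. The fibroblast gene LUM had no reads. The 4 epithelial markers summed to 358 to 374 CPM in mut and 294 to 325 in WT, the 7 HEK293 markers to 1553 to 1656 and 1287 to 1402, and the 5 fibroblast markers to 4.48 to 6.92 and 2.69 to 3.60. Their part in the results below was not tested. In bulk RNA, fewer cells of a kind and less RNA per cell cannot be told apart.

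Of the 41 genes, 13 were higher and 6 lower in mut at an adjusted p under 0.05 (edgeR's quasi-likelihood test), and 22 did not pass. Over all 14409 genes tested, 13.0% were higher and 14.2% lower by the same rule, so the count of lower genes is near the background and the count of higher genes is above it. That background was not matched for read count. Each listed gene had at least 458 reads, the background also holds genes with fewer, and a change of given size is called more easily at high counts. The part of read count in the number of calls was not tested. The changes were small. They ran from −0.32 to 0.45 in log2 fold change, with a median of 0.03 against −0.01 over all genes tested. The median size of change regardless of direction was 0.19 for these genes and 0.18 for all genes. Added together, the 41 genes held 3773 ± 29.4 CPM in mut against 3734 ± 32.4 in WT. Libraries lay wholly apart in 12 genes with mut above and 11 with mut below, where 19.4% and 21.2% of all genes tested did so.

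**Figure D1:**
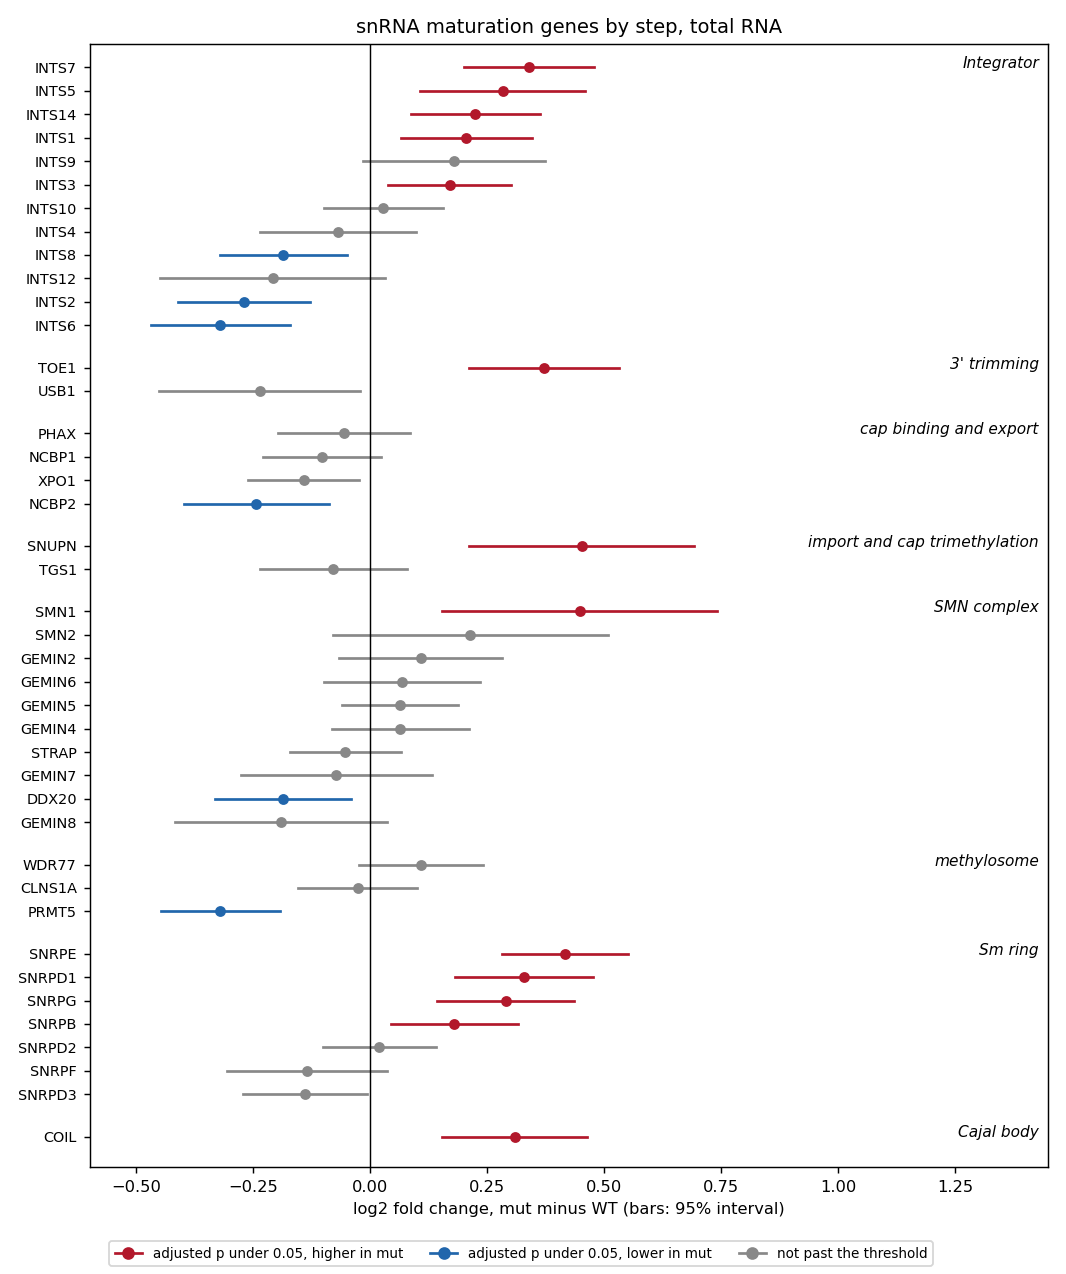
The log2 fold change of each of the 41 genes (x axis, mut minus WT, with its 95% interval) is plotted by step of snRNA maturation, red where higher and blue where lower at an adjusted p under 0.05. Rises and falls sit side by side within Integrator, and the 4 Sm ring genes that passed lie to the right of 0.

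The number of calls differed with the test and the filter. DESeq2 on the same 14409 genes, an alternative chosen after seeing the data, left 10 higher and 3 lower, losing INTS3, INTS8, NCBP2, SMN1, DDX20 and SNRPB (DESeq2 adjusted p = 0.061 to 0.12). DESeq2 fitted without the filter left 9 and 3, with INTS5 lost as well (DESeq2 adjusted p = 0.060), and edgeR without the filter left 11 and 4. Over all genes the main test called 1867 higher and 2049 lower, and DESeq2 on the filtered genes 1315 and 1357. Without the filter DESeq2 called 1205 and 1255, and edgeR 1677 and 2113. A test against a change of 1.2-fold (edgeR glmTreat) left 0 of the 41, and 463 higher and 447 lower over all genes. At an unadjusted p under 0.05 glmTreat had 5 of the 41 higher and 0 lower, and the share of all genes at that p was not counted. Under the other 12 alternatives, which leave out each library, change the scaling, the filter or the tool, add a block or remove the gene span trend, 7 of the 13 higher genes (INTS7, TOE1, SNUPN, SNRPD1, SNRPE, SNRPG and COIL) and 2 of the 6 lower genes (INTS6 and PRMT5) were called each time.

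Integrator subunits moved in both directions. Of 12 subunits, 5 were higher (INTS7, INTS5, INTS14, INTS1 and INTS3) and 3 were lower (INTS6, INTS2 and INTS8). Another 4 did not pass (INTS4, INTS9, INTS10 and INTS12). Over all genes tested 13.0% were higher and 14.2% lower, and the counts per module below have the same background. Summed over the 12 genes the level was 864 ± 13.6 CPM in mut against 836 ± 8.53 in WT.

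INTS7, a backbone subunit (ENSG00000143493.11, chromosome 1, 211940403 to 212035557), was counted at 86.2, 96.0 and 94.2 CPM in the mut libraries and 72.0, 71.0 and 75.7 CPM in the WT libraries. All mut libraries lay above all WT libraries, by 0.34 on the log2 scale (SE 0.07, edgeR adjusted p = 0.00046). INTS1, the large scaffold of the complex, was at 100.2, 92.1 and 99.6 CPM against 85.9, 88.6 and 77.9 CPM, again without overlap (0.21 log2, edgeR adjusted p = 0.026). INTS2, the third backbone gene, moved the other way, at 69.2, 79.0 and 72.7 CPM in mut and 87.8, 86.1 and 92.9 CPM in WT, with mut below throughout (−0.27 log2, edgeR adjusted p = 0.0046). Of the 3 backbone genes, 2 therefore rose and 1 fell.

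The phosphatase module docks protein phosphatase 2A onto Integrator and holds INTS5, INTS6 and INTS8, of which 2 fell and 1 rose. INTS6 (ENSG00000102786.13, chromosome 13, 51334405 to 51453036), which recruits the phosphatase, was at 60.4, 67.4 and 68.4 CPM in mut and 84.1, 75.8 and 85.8 CPM in WT. The highest mut library stayed below the lowest WT library, with a fitted log2 change of −0.32 (SE 0.07, edgeR adjusted p = 0.0016). INTS8 was at 72.9, 73.6 and 77.2 CPM against 88.4, 82.5 and 83.8 CPM (−0.19 log2, edgeR adjusted p = 0.038). Its groups did not overlap. INTS5 went the other way, at 39.1, 35.1 and 40.7 CPM in mut and 29.4, 33.8 and 30.8 CPM in WT (0.28 log2, edgeR adjusted p = 0.015). The 3 genes of the module summed to 178 ± 7.17 CPM in mut against 198 ± 5.27 in WT.

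Outside these modules, INTS14, part of the nucleic acid-binding arm with INTS10, was at 98.0, 108 and 106 CPM in mut and 92.6, 90.6 and 83.3 CPM in WT (0.22 log2, edgeR adjusted p = 0.014). INTS3, which also serves in the SOSS complex at DNA breaks, was at 127, 128 and 119 CPM against 112, 116 and 104 CPM (0.17 log2, edgeR adjusted p = 0.0495). Both sets of libraries were apart, with INTS3 close to the threshold. The endonuclease partners did not pass. INTS9, the inactive paralog that pairs with the nuclease INTS11, was at 29.2 ± 2.02 and 25.6 ± 2.79 CPM (0.18 log2, edgeR adjusted p = 0.16), and INTS4, which holds that pair, was at 32.9 ± 1.44 and 34.5 ± 0.79 CPM (−0.07 log2). With the gene span trend removed INTS9 passed (0.26 log2, edgeR adjusted p = 0.041). INTS10 stood at 0.03 (95% interval −0.10 to 0.16) and INTS12, the subunit with a PHD finger, at −0.21 (−0.45 to 0.03).

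**Figure D2:**
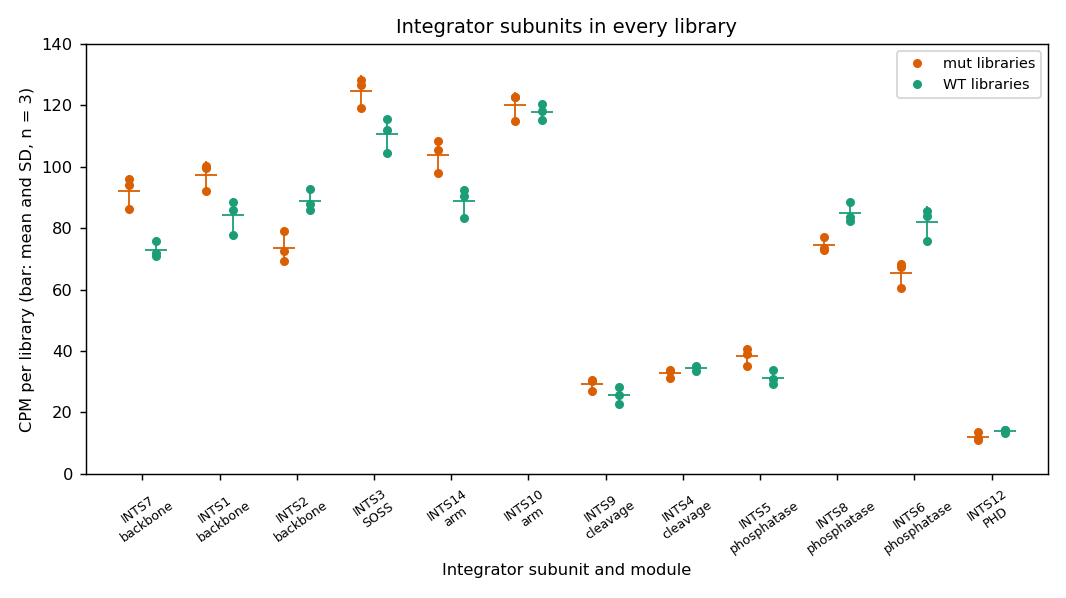
CPM of each Integrator subunit (y axis) in the 3 mut and 3 WT libraries, ordered by module, with horizontal bars for the mean and vertical bars for the SD. INTS2, INTS6 and INTS8 are lower in every mut library, while INTS7 and INTS1, which share the backbone with INTS2, are higher. CPM is not divided by transcript length, so heights cannot be compared between genes.

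Several Integrator calls were lost when 1 library was left out, which also leaves the test fewer libraries. A lost call therefore does not show that the change came from that library. INTS1 was at 0.205 and 0.218 log2 without mut library 3 and WT library 1, against 0.205 with all libraries. For INTS1 the call ended on leaving out mut library 3, WT library 1 or WT library 3 (edgeR adjusted p = 0.068, 0.062 and 0.13), and INTS2 without WT library 3 (0.0504). INTS3 was lost without mut library 1 or 2 or WT library 1 or 3 (0.067, 0.14, 0.11 and 0.18), INTS5 without mut library 3 or WT library 1 (0.064 and 0.094), and INTS14 without mut library 2 or WT library 3 (0.059 and 0.071). INTS8 passed only when WT library 2 was the one left out. Without the other 5 its edgeR adjusted p was 0.074 to 0.18.

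The 250 bases before the start of INTS7 and INTS6 are printed because these subunits moved in opposite directions and passed under 12 alternatives. Both come from the RefSeq promoter table (GRCh38.p14, the build of the files), read 5′ to 3′ on the minus strand, INTS7 from chr1:212035558-212035807 and INTS6 from chr13:51453037-51453286. Capitals mark the letters TGACGTCA, a cyclic AMP response element, and CACGTG, an E-box.
INTS7: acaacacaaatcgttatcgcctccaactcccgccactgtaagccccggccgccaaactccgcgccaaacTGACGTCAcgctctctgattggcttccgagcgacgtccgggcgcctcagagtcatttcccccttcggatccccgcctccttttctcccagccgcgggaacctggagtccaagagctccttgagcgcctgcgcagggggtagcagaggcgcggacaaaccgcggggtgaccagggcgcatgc
INTS6: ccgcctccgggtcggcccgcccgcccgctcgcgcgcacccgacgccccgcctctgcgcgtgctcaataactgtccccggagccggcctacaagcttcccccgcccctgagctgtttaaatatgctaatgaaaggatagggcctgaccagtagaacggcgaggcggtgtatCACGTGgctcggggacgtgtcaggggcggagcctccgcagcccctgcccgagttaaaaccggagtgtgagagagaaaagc

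Motifs were searched on both strands in the same window of the 27 listed genes that had a usable window wholly outside the annotated gene. TGACGTCA was in 1 of these genes (INTS7) and in 1.65% of all 35116 promoter windows. CACGTG was in INTS6 and GEMIN8, and in 6.34% of all windows. The ETS letters CCGGAAG were in 8 genes (INTS1, INTS3, INTS4, PHAX, GEMIN8, CLNS1A, SNRPB and SNRPD2) and in 8.52% of all windows. Of these 8 genes 3 were higher and 0 lower in mut, and of all 27 genes with a window 7 were higher and 5 lower. The NRF1 palindrome was in GEMIN2 and AAGATGGC (YY1) in WDR77, against 1.03% and 1.36% of all windows. Each printed window held 1 match to the motifs searched, and a match describes letters only. The 35116 windows were not matched to the listed genes in expression or base composition.

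The 2 enzymes that trim snRNA 3′ ends differed. TOE1, a nuclear deadenylase that removes tails from snRNA precursors of the polymerase II class (ENSG00000132773.10, chromosome 1, 45340170 to 45343973), was at 45.8, 45.9 and 49.0 CPM in mut and 34.3, 38.4 and 35.5 CPM in WT. Every mut library exceeded every WT library (log2 fold change 0.37, SE 0.08, edgeR adjusted p = 0.00082). USB1, which trims the uridine tail of U6, was at 15.5, 15.4 and 14.7 CPM against 16.6, 19.0 and 17.9 CPM. Its groups did not overlap either, but the difference did not pass (−0.24 log2, 95% interval −0.45 to −0.02, edgeR adjusted p = 0.096).

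All 4 genes of cap binding and export had fitted changes below 0, and 1 of them passed. Among all genes tested 27.2% passed in either direction. NCBP2, the subunit that binds the cap, was at 40.4, 44.4 and 41.02 CPM in mut and 49.6, 48.0 and 51.6 CPM in WT (−0.24 log2, SE 0.08, edgeR adjusted p = 0.018). The libraries were apart, and the call was lost without mut library 1 or 3 or WT library 1 or 3 (edgeR adjusted p = 0.067, 0.086, 0.055 and 0.11). Its partner NCBP1 was at 120.5 ± 4.70 and 130 ± 3.11 CPM (−0.10 log2, edgeR adjusted p = 0.22) and the export adaptor PHAX at 69.3 ± 3.93 and 72.0 ± 1.797 CPM (−0.06 log2, edgeR adjusted p = 0.59). XPO1, the exportin itself, was at 388, 432 and 434 CPM against 480, 437 and 466 CPM. All mut values were below all WT values by a small gap (−0.14 log2, edgeR adjusted p = 0.069), and XPO1 passed when WT library 2 was left out (−0.18 log2, edgeR adjusted p = 0.032).

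On the way back to the nucleus, SNUPN, the import adaptor for the trimethylated cap (ENSG00000169371.12, chromosome 15, 75598086 to 75626461), had the largest fitted change of the 41 genes. It was at 16.5, 19.3 and 19.5 CPM in mut and 15.6, 11.8 and 13.4 CPM in WT. The lowest mut library was just above the highest WT library (log2 fold change 0.45, SE 0.12, edgeR adjusted p = 0.0051). TGS1, the enzyme that adds the extra methyl groups to the cap, was at 52.8 ± 0.59 and 56.1 ± 4.95 CPM (−0.08 log2, 95% interval −0.24 to 0.08).

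In the SMN complex 1 of 10 genes was higher, 1 was lower and 8 did not pass. Among all genes tested 27.2% passed in either direction. GEMIN2, which cradles the Sm pentamer, was at 0.11, GEMIN5, which recognises the snRNA code, at 0.06, GEMIN4 at 0.06, GEMIN6 and GEMIN7, an Sm-like pair, at 0.07 and −0.07, GEMIN8 at −0.19 and STRAP at −0.05 in log2 fold change. Their edgeR adjusted p ranged from 0.21 (GEMIN8) to 0.63 (GEMIN7), and the 95% intervals for GEMIN5 and STRAP were −0.06 to 0.19 and −0.17 to 0.07. DDX20, the helicase also called GEMIN3, was at 67.1, 78.1 and 73.7 CPM in mut and 85.8, 79.1 and 84.5 CPM in WT. The groups came within about 1 CPM of each other (−0.19 log2, edgeR adjusted p = 0.0499). The call was lost without mut library 1 or 3 or WT library 1 or 3 (edgeR adjusted p = 0.24, 0.13, 0.18 and 0.19). It was also lost in edgeR with RLE scaling, the scaling method of DESeq2 (edgeR adjusted p = 0.057). The 10 genes summed to 647 ± 12.8 CPM in mut against 646 ± 3.92 in WT.

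SMN1 and SMN2 are near-identical copies on chromosome 5 (70924941 to 70966375 and 70049523 to 70090528), and both are uncertain as single genes. Reads with several alignments, 30.5% to 42.0% of all reads in a library, are not in the gene counts. SMN1 had 133, 121 and 85 reads in mut and 83, 132 and 76 in WT, which is 14.8, 14.2 and 9.77 CPM against 8.58, 10.3 and 9.34 CPM. Mut library 3 lay within the WT range, and SMN1 passed (0.45 log2, SE 0.14, edgeR adjusted p = 0.021) but not without mut library 1 or 2 or WT library 1 (0.11, 0.075 and 0.088). SMN2 was at 8.49, 8.46 and 9.19 CPM against 8.27, 7.67 and 6.39 CPM (0.21 log2, 95% interval −0.08 to 0.51, edgeR adjusted p = 0.28). The sum of both copies was 23.3, 22.7 and 19.0 CPM in mut and 16.9, 18.01 and 15.7 CPM in WT, without overlap. Whether SMN1 and SMN2 changed differently was not tested.

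The methylosome, which prepares Sm proteins for assembly by methylating their arginines, had 1 fall among 3 genes. Among all genes tested 14.2% were lower. PRMT5, its methyltransferase (ENSG00000100462.14, chromosome 14, 22920529 to 22929376), was at 186, 175 and 201 CPM in mut and 230, 244 and 225 CPM in WT. All mut libraries lay below all WT libraries (log2 fold change −0.32, SE 0.06, edgeR adjusted p = 0.00036). WDR77, its obligate partner, was at 114 ± 5.82 and 106 ± 3.72 CPM (0.11 log2, edgeR adjusted p = 0.22). CLNS1A, the chaperone that holds the Sm proteins, was at 134 ± 7.21 and 137 ± 2.72 CPM (−0.03 log2, edgeR adjusted p = 0.79).

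Of the 7 Sm ring genes, 4 rose and 0 fell, where 13.0% and 14.2% of all genes tested did. SNRPE (ENSG00000182004.11, chromosome 1, 203861599 to 203871152) was at 117, 117 and 106 CPM in mut and 88.9, 82.7 and 83.4 CPM in WT. With every mut library above every WT library, it had the smallest adjusted p of the 41 genes (log2 fold change 0.42, SE 0.07, edgeR adjusted p = 3.5e-05). SNRPD1 (chromosome 18, 21612314 to 21633520) was at 77.7, 80.2 and 92.3 CPM against 66.4, 65.9 and 67.1 CPM (0.33 log2, edgeR adjusted p = 0.0012). SNRPG was at 69.2, 61.2 and 65.3 CPM against 53.5, 52.9 and 53.9 CPM (0.29 log2, edgeR adjusted p = 0.0034). The WT libraries of both genes were tightly grouped and the mut libraries all stood above them. SNRPE and SNRPD1 lay among neighbours of which 35 of 58 and 12 of 21 were also higher.

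SNRPB, which encodes the Sm B proteins, was at 394, 354 and 335 CPM in mut and 303, 351 and 300.5 CPM in WT. WT library 2 lay inside the mut range (0.18 log2, SE 0.07, edgeR adjusted p = 0.044). Omitting mut library 1, WT library 1 or WT library 3 ended the call (edgeR adjusted p = 0.17, 0.19 and 0.17) as did removing the gene span trend (0.080), a replicate block (0.063) and DESeq2 with or without the filter. SNRPD2, which pairs with D1, was at 226 ± 11.99 and 223 ± 5.79 CPM (0.02 log2, 95% interval −0.10 to 0.14), and SNRPF at 35.9 ± 2.99 and 39.5 ± 2.06 CPM (−0.14 log2, edgeR adjusted p = 0.24). SNRPD3, which pairs with B, was at 86.9, 90.3 and 93.3 CPM against 101, 96.2 and 101 CPM. Its groups did not overlap, but it did not pass (−0.14 log2, edgeR adjusted p = 0.11) unless the span trend was removed (−0.16 log2, edgeR adjusted p = 0.049). Members of the same pairs thus had unlike fitted values (D1 and D2, B and D3), and these differences between genes were not tested. The ring as a whole summed to 975 ± 37.05 CPM in mut against 885 ± 27.4 in WT.

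The bases before the start of SNRPB are shown because, of the Sm genes past the test, it alone had a window to search. That window held an ETS match, as did the window of SNRPD2, which did not pass. They are the 250 bases of chr20:2470790-2471039 on the minus strand (RefSeq, GRCh38.p14), with CCGGAAG in capitals.
SNRPB: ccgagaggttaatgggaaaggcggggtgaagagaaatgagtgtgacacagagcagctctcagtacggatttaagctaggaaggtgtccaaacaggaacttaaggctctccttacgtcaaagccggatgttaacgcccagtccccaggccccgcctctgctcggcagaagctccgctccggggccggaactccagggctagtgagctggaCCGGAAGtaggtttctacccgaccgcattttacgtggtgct

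COIL encodes coilin, the scaffold of the Cajal body (ENSG00000121058.4, chromosome 17, 56938199 to 56961050). It was at 61.5, 72.5 and 69.4 CPM in mut and 57.8, 52.2 and 54.3 CPM in WT. The lowest mut library was above the highest WT library (log2 fold change 0.31, SE 0.08, edgeR adjusted p = 0.0031).

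**Figure D3:**
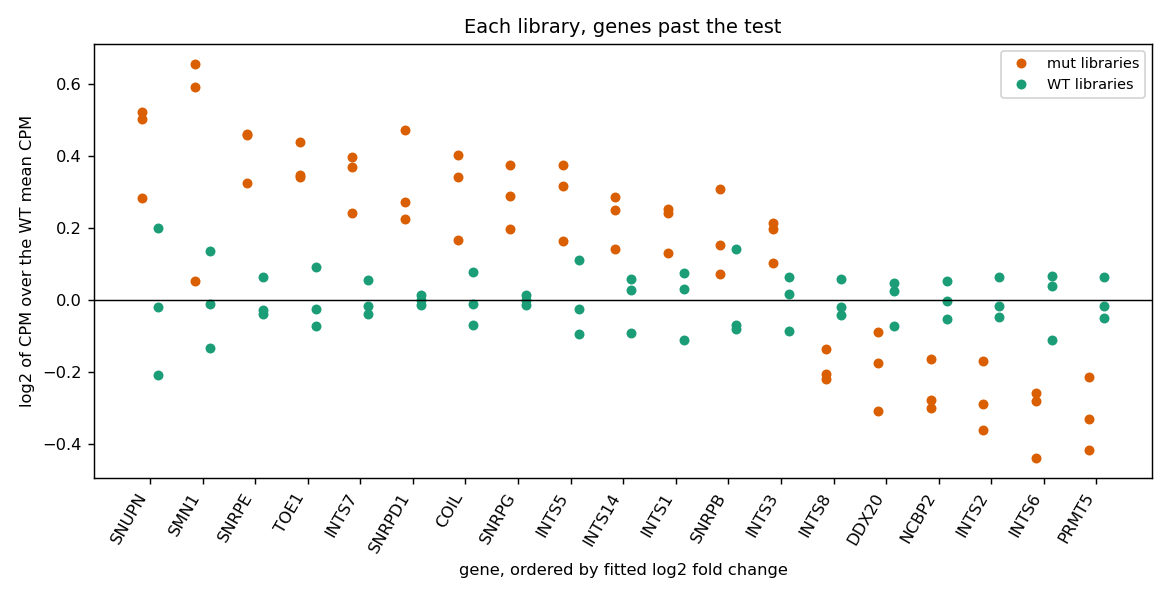
Each library of the 19 genes that passed, as log2 of its CPM over the mean CPM of the WT libraries (y axis), with genes ordered by fitted change. Mut and WT libraries overlap in SMN1 and SNRPB alone, and the falls are led by PRMT5 and INTS6.

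Chromosomal position went along with many of these values. For each gene the median log2 fold change of the tested protein-coding genes within 5 Mb on either side was taken, the gene itself left out. SNRPE on chromosome 1 lay among 58 such genes with a median of 0.32, 35 of them higher in mut and 0 lower. INTS7, also on chromosome 1, had 35 neighbours with a median of 0.30 (21 higher, 0 lower). SNUPN on chromosome 15 had 74 with a median of 0.32 (47 higher, 0 lower), and SNRPD1 on chromosome 18 had 21 with a median of 0.28 (12 higher, 0 lower). The neighbours of SMN1 had a median of 0.22, with 21 of 39 higher. PRMT5 on chromosome 14 had 71 neighbours with a median of −0.27 (2 higher, 33 lower). For these 6 genes the neighbours' median lay within the gene's own 95% interval. Over the 19 genes that passed, 8 intervals held the neighbours' median, 7 of them among the 13 higher genes and 1 among the 6 lower. The 4 genes of cap binding and export also lay among neighbours with medians below 0. These were −0.15 for XPO1 (itself at −0.14), −0.10 for NCBP1 (−0.10), −0.09 for PHAX (−0.06) and −0.06 for NCBP2 (−0.24).

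Other genes differed from their surroundings. TOE1 (0.37) had 82 neighbours with a median of 0.01, COIL (0.31) had 48 with −0.05, SNRPG (0.29) had 67 with 0.01, and INTS6 (−0.32) had 31 with 0.01. GEMIN2 on chromosome 14 was at 0.11 (95% interval −0.07 to 0.28), while 20 of its 25 neighbours were lower in mut and 0 higher, with a median of −0.47. Across the 41 genes the fitted change and the neighbours' median had a Spearman correlation of 0.58. That value is a description over genes, several of which share neighbours.

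**Figure D4:**
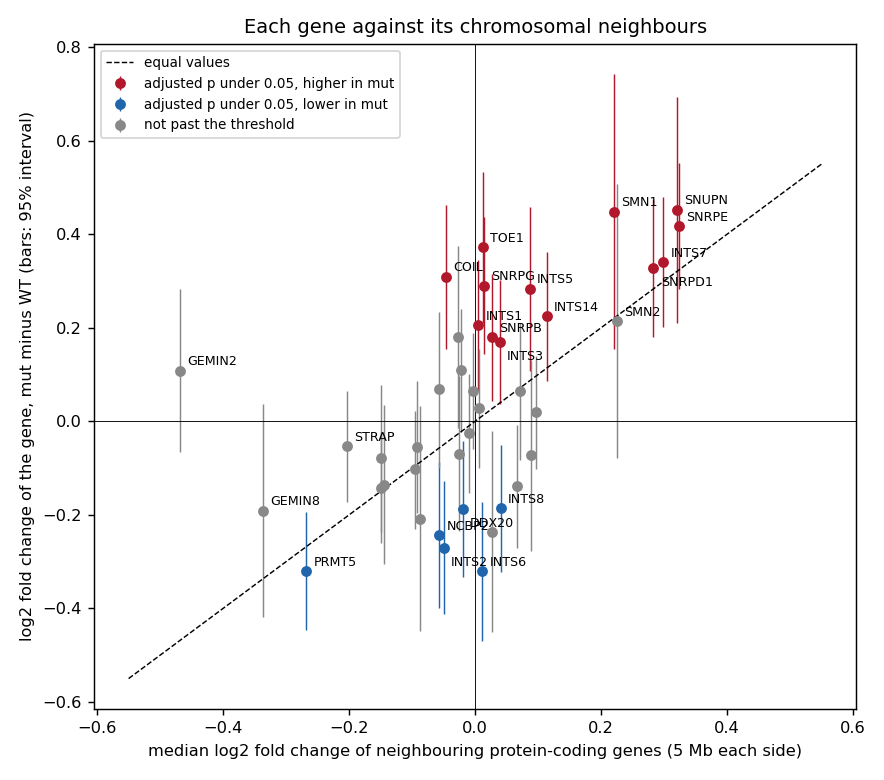
Log2 fold change of each of the 41 genes with its 95% interval (y axis) against the median of its protein-coding neighbours within 5 Mb (x axis), the dashed line marking equal values. SNRPE, SNUPN, INTS7, SNRPD1 and PRMT5 lie near the line, while TOE1, COIL, SNRPG, INTS6 and GEMIN2 lie away from it.

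Gene span varied from 3.8 kb (TOE1) to 122 kb (INTS9). Over the 41 genes span and fitted change had a Spearman correlation of −0.11, against −0.23 over 13408 tested genes with a span, again as a description across genes. Of the 11 listed genes up to 10 kb, 4 were higher and 2 lower, where 15.4% and 6.06% of all tested protein-coding genes of that span were. Of the 17 from 10 to 40 kb, 6 were higher and 1 lower (14.9% and 11.4% of all). Of the 13 over 40 kb, 3 were higher and 3 lower (10.8% and 21.6% of all). The medians of the 3 classes were 0.07, −0.03 and −0.07, against 0.07, 0.01 and −0.07 over all tested protein-coding genes.

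Overlapping genes and copies set a further limit on single values. The RefSeq spans of 8 of the 41 genes overlap another protein-coding gene, among them 3 that passed: TOE1 (MUTYH and TESK2), INTS6 (SERPINE3) and INTS8 (CCNE2). Reads that overlap several genes are left out of the counts, and made up 8.60% to 9.86% of entries in mut and 6.90% to 8.28% in WT. Reads outside any gene made up 12.3% to 13.7% of entries in mut and 16.6% to 19.4% in WT. The part of these differences in the results was not tested. MUTYH and TESK2 were at 0.10 and 0.29 and CCNE2 at 0.18 in log2 fold change (edgeR adjusted p = 0.59, 0.080 and 0.11), and SERPINE3 had 4 reads in all. GUCD1, which overlaps SNRPD3, rose by 0.32 (edgeR adjusted p = 0.00036) while SNRPD3 was at −0.14. Per the labels the libraries were made with a strand-specific kit. The strand setting of the counting is not given in the sources used here. Whether reads were left out where PRMT5-AS1, NCBP2-AS1 and SMN1-AS1 overlap PRMT5, NCBP2 and SMN1 is therefore not known. PRMT5-AS1 had 239 reads against 12075 for PRMT5, and NCBP2-AS1 had 12 against 2610 for NCBP2. INTS6-AS1, with 71 reads against 4189 for INTS6, does not overlap INTS6 in RefSeq.

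Few reads were counted in pseudogene copies. Reads that align to both a gene and its copy are left out of both counts. The counts below therefore do not show how many reads a gene lost to its copies. The 51 pseudogenes named after the listed genes held 853 reads, 1.06% of those of their 14 parent genes, and 31 had none. For SNRPG, 20 pseudogenes held 558 reads, 16.7% of its own count, most of them in SNRPGP10 (60, 41 and 56 reads in mut and 44, 61 and 30 in WT) and SNRPGP2 (44, 24 and 35 against 31, 43 and 27). SNRPGP10 was at 0.44 in log2 fold change (edgeR adjusted p = 0.070). GEMIN8P4 had 134 reads, 17.2% of the 777 counted for GEMIN8. It rose by 0.74 (edgeR adjusted p = 0.033) while GEMIN8 was at −0.19. The Sm paralog SNRPN is listed at 0 in all 6 libraries. Since reads that overlap several genes or align to several places are left out, this 0 does not show that SNRPN was silent.

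A further 55 genes of the snRNA pathway were listed by role. Of the 54 tested, 5 were higher and 8 lower in mut, against the same background of 13.0% and 14.2%, with a median of 0.03. Among the remaining Integrator subunits and partners, the nuclease INTS11 was at 0.10 (edgeR adjusted p = 0.38), INTS13 at −0.12 and INTS15 at 0.12. INTS6L, the paralog of INTS6, fell by 0.38 on the log2 scale (13.2, 13.6 and 12.98 CPM against 18.8, 17.1 and 15.7 CPM, edgeR adjusted p = 0.011). Leaving out mut library 3 or WT library 1 ended this call (edgeR adjusted p = 0.0503 and 0.072). DESeq2 did not call INTS6L without the filter or on the filtered genes (DESeq2 adjusted p = 0.089 and 0.065). WDR73, a partner of Integrator on chromosome 15, rose by 0.50 (55.2 ± 3.06 against 38.7 ± 4.74 CPM, edgeR adjusted p = 7.5e-05). Its 40 neighbours had a median of 0.36, with 26 higher and 0 lower, which lay within its own 95% interval (0.33 to 0.67).

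Of 11 snRNA transcription genes, 3 fell and 1 rose, where 14.2% and 13.0% of all genes tested did, and of the falls the one in ICE2 alone was also called by DESeq2. ICE2, part of the little elongation complex at snRNA genes, fell by 0.44 (50.8 ± 7.85 against 69.2 ± 7.36 CPM, edgeR adjusted p = 0.00083). Among cap and transport factors, the cap-binding partner SRRT rose by 0.28 (110 ± 11.04 against 90.4 ± 9.34 CPM, edgeR adjusted p = 0.0089), with overlapping libraries and no call without mut library 3 or WT library 1 (0.056 and 0.077). RIOK1, an adaptor of PRMT5, fell by 0.27 (46.5 ± 4.76 against 55.8 ± 2.397 CPM, edgeR adjusted p = 0.013), but not without mut library 2 or WT library 2 (0.079 and 0.053).

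Of the 5 proteins specific to U1 and U2 particles, 0 passed in edgeR at an adjusted p under 0.05. Their log2 fold changes ran from −0.17 to 0.13, and among all genes tested 27.2% passed in either direction. In the U6 group, MEPCE, the capping enzyme of 7SK and U6, rose by 0.28 and LSM3, of the Lsm ring, by 0.21 (edgeR adjusted p = 0.0052 and 0.020). MEPCE was not called without WT library 1 (0.060), nor LSM3 without WT library 1 or 3 (0.068 and 0.072). USPL1, a Cajal body protein, fell by 0.40 (24.3 ± 2.91 against 32.5 ± 4.74 CPM, edgeR adjusted p = 0.0054), or by 0.29 without WT library 3 (0.067).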

How the data were processed

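Total RNA from 3 mut and 3 WT libraries was analysed, and the small RNA libraries were not used here. The authors deposited raw read counts per Ensembl gene. Per the submitters' processing notes the tools, whose roles are not stated, were DESeq2 1.8.2, STAR 2.4.0, HTSeq 0.6.1, CASAVA 1.8.2, FastQC 0.11.3 and SAMtools 1.2-10, with build hg38. The annotation version is not given in the sources used here. Reads assigned to no gene, 57.8% to 63.2% of entries per library, stayed out of library sizes and tests. Symbols matched 56321 of 60483 rows, and positions come from RefSeq (GRCh38.p14). Transcript lengths were not used here, so levels are not compared between genes.

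Genes were tested with edgeR 4.0.16 (R 4.3.3, filterByExpr, TMM, glmQLFTest, two-sided, Benjamini-Hochberg adjustment over 14409 genes at 0.05), checked on simulated counts. Alternatives were RLE scaling, DESeq2 1.42.0 (fitted to 31913 unfiltered genes, 14226 given an adjusted p, and, added after seeing the data, to the 14409 tested), no filter, a replicate block, each library left out, a lowess trend on gene span as an offset, and glmTreat at 1.2-fold. CPM uses TMM-scaled library sizes. The members and lists were chosen with earlier results of these data known. Every listed gene is accounted for, with each library given where it passed. Of the further pathway genes up to 4 rises and 4 falls with the smallest adjusted p are named, besides INTS11, INTS13, INTS15 and SNRPN, chosen after their values were seen. No replicate pair agreed within sampling noise (chi-square per degree of freedom 1.87 to 3.97).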

Additional observations from a re-analysis of the deposited data

How the results depend on the processing

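Leaving out 1 library gave 8 to 13 of the 41 genes higher and 2 to 7 lower, with the fewest higher without WT library 1 (8) and the fewest lower without WT library 3 (2), then 3 lower without mut library 1, mut library 3 or WT library 1. For the further pathway genes it gave 1 to 7 higher and 4 to 8 lower, with 1 higher without WT library 1. Over all genes it gave 1327 to 1832 higher and 1274 to 2109 lower. DESeq2 called 3 of the 41 genes and 3 of the further genes lower, both without the filter and on the 14409 filtered genes. It called 1205 genes higher and 1255 lower without the filter, where 14226 genes had an adjusted p, and 1315 and 1357 of the filtered genes. A test against a 1.2-fold change (edgeR glmTreat) called 0 higher and 0 lower of the 41, 1 and 0 of the further genes (3 lower at an unadjusted p under 0.05), and 463 and 447 of all genes. Without a filter 3 further genes were higher. The cause was not tested.

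Same-numbered libraries did not deviate together (correlations of −0.07, −0.06 and 0.03), and the main test did not pair them. With 3 libraries per variant these correlations cannot show whether same-numbered libraries were prepared together. With the replicate block 10 of the 41 genes were higher and 4 lower, and 3 and 7 of the further genes. No gene that passed changed sign under any alternative. Of those that did not pass, INTS4 and SNRPD2 changed sign with the span trend removed (0.01 and −0.041). With 1 library left out CLNS1A ran from −0.070 to 0.015 and was above 0 without mut library 1 (0.015) or 3 (0.001), and SNRPD2 ran from −0.011 (without mut library 1) to 0.073. SMN2 and SMN1 had the fewest reads of the 41 genes (458 and 630) and the largest standard errors (0.14 each).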
